A study of Mus musculus with 6 samples.

Results

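Hematopoietic stem cells keep a set of open stretches of chromatin that lie between protein-coding genes and away from their ends. The regions described here are those that were called open in all 6 libraries of an ATAC-seq series, lay outside every protein-coding gene and had their nearest protein-coding gene 10 to 100 kb away. They were chosen by their peak calls in the 6 libraries and by their distance from genes, and numbered 2781, which was 13.4% of the 20810 regions called in all 6 libraries and a small part of the 82993 regions called in any. To find them, peaks of the 6 libraries that shared 1 bp or more were merged into union regions on chromosomes 1 to 19, X and Y, and gene spans were taken from the RefSeq table of GRCm38.p6, the assembly behind mm10. Being called in 6 of 6 libraries was part of the choice, so the rank of these peaks against all peaks describes the choice and is not a finding.

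The cells were CD48-CD150+ LSK cells, the Lineage-negative Sca-1+ Kit+ gate that holds long-term stem cells, sorted from the bone marrow of wild-type C57BL/6J mice. Mice in one group received the solvent DMSO by intraperitoneal injection (3 libraries), and mice in the other received Tunicamycin at 2 mg/kg by the same route (3 libraries). Tunicamycin blocks N-linked glycosylation, so that unfolded proteins gather in the endoplasmic reticulum (ER). Each library was made from about 5000 cells, and how old the mice were, their sex, the time from injection to sorting and how many mice a library holds were not stated in the labels. The labels do not say whether the 3 libraries of a group came from separate mice, so the spread behind each p-value may be technical.

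ATAC-seq marks DNA that a transposase can reach, which in most cells means promoters, enhancers and sites held open by insulator proteins. Distal enhancers carry much of the cell-type identity of blood cells, and a gene such as Runx1 or Gata2 is controlled by several of them, some far from its start. Part of the open sites between protein-coding genes are the promoters of long non-coding RNAs (lncRNAs) or are tRNA genes, which are transcribed by RNA polymerase III. The gene nearest to a region is a position and not a target, because an enhancer can pass over its neighbour.

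Of the 2781 regions, 189 (6.80%) overlapped the promoter window of an lncRNA, from 250 bases before to 50 bases after the annotated start. The sequences of 7 of these windows are shown because they are the regions whose likely kind can be read from the annotation itself. Gm33195 and Dancr had the highest ranks of the 189, D130051D11Rik lies beside Wnt7b, Snhg5 and Snhg17 host small nucleolar RNAs, and Gm26567 and Gm26611 are copies of each other. All are from RefSeq on GRCm38.p6, in the direction of transcription. Capitals mark matches to 6 promoter motifs, searched on both strands, and matches may overlap each other. The GC box was searched as GGGCGG, the ETS motif as CCGGAAG, the cyclic AMP response element as TGACGTCA and the TATA box as TATAAA. The CCAAT box was searched by the letters of its name, and the NRF1 motif by its core palindrome. The windows are Gm33195 at chr13:43864306-43864605 (plus strand), Dancr at chr5:74092810-74093109 (plus), D130051D11Rik at chr15:85634346-85634645 (plus), Snhg5 at chr9:88522848-88523147 (minus), Snhg17 at chr2:158361460-158361759 (minus), Gm26567 at chr9:88599390-88599689 (plus) and Gm26611 at chr9:88858718-88859017 (plus).
Gm33195: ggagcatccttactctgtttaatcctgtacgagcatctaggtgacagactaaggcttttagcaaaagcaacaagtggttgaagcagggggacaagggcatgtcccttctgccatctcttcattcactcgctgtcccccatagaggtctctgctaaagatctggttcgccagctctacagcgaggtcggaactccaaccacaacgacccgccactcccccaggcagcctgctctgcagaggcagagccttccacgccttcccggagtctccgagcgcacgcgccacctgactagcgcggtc
Dancr: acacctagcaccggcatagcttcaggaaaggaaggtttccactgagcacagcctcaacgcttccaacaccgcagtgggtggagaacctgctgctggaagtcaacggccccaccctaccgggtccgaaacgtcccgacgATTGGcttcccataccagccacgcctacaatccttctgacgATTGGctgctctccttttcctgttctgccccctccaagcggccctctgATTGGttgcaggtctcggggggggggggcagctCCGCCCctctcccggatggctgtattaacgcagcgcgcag
D130051D11Rik: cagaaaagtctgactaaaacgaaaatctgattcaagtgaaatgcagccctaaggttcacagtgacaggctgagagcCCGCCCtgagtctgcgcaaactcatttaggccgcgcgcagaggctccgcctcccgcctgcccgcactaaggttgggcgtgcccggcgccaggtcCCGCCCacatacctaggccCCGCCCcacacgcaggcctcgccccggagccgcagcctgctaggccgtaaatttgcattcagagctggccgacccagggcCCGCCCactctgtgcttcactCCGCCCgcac
Snhg5: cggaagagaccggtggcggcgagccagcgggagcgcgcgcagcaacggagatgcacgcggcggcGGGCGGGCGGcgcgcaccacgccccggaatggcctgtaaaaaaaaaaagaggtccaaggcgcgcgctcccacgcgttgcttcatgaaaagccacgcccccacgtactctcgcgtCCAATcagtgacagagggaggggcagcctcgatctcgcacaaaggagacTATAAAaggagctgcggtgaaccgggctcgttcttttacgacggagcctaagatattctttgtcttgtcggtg
Snhg17: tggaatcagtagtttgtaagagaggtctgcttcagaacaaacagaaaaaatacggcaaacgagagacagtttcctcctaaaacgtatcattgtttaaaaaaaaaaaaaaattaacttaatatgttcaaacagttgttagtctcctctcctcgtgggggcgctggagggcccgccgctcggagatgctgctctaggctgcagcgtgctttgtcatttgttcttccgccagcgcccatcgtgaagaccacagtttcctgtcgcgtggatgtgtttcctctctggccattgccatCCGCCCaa
Gm26567: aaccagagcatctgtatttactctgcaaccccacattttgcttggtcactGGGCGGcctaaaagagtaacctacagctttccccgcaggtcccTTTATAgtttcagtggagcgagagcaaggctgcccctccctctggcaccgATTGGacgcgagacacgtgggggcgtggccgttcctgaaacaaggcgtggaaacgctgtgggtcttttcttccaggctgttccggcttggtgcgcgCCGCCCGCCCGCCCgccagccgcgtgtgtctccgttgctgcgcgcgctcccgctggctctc
Gm26611: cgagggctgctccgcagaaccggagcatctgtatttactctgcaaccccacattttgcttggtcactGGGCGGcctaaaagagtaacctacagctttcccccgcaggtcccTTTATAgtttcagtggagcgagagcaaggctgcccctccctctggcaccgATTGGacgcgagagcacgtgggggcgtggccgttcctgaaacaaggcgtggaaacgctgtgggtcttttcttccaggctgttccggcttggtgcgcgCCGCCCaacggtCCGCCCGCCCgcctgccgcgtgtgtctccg

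The Gm33195 window held none of the 6 motifs, and the D130051D11Rik window held 5 GC boxes. Dancr had 3 CCAAT boxes and 1 GC box, while Snhg5 had 2 GC boxes, 1 CCAAT box and 1 TATA box. The windows of Gm26567 and Gm26611 matched at 271 of 283 aligned positions (95.8%), and the Snhg5 window matched the reverse complement of the Gm26567 window at 202 of 260 positions (77.7%). All 3 lie on chromosome 9, nearest to Zfp949, Trim43a and Trim43c, and reads from such copies may be split or misplaced between them, so their values are uncertain. A match is a description of the letters, not evidence that a factor binds there.

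Over the 189 lncRNA windows (the window nearest to the summit in each region), GC boxes were in 31.2%, against 16.3% of the 11588 windows of all lncRNAs in the table and 35.7% of all 32851 windows. The ETS letters were in 11.6% of the windows in these regions, 3.89% of all lncRNA windows and 8.86% of all windows. CCAAT boxes were in 32.8%, 36.0% and 37.4%, and TATA boxes in 11.1%, 15.5% and 13.6%, in the same order. The AP-1 letters TGANTCA were in 10.6%, 9.31% and 7.81%, the GATA letters AGATAA in 12.2%, 14.0% and 11.2%, and the RUNX letters TGTGGT in 23.3%, 20.0% and 16.8%. The median GC content was 53% in the windows of these regions, 48.3% over all lncRNA windows and 52.7% over all windows, and a ratio of observed to expected CpG over 0.6 was found in 49 of 189 (25.9%), in 14.0% and in 35.8%, in the same order. These shares carry no test, and no genome was used here, so the bases of the other 2592 regions were not searched.

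The 189 regions were chosen by overlap with the window around an lncRNA start, and the start nearest to the summit was taken. Closeness of summits and starts is thus in part set by the choice. The window reaches further upstream than downstream, which bears on the upstream share in the same way. The start site itself was inside the region in 182 of the 189, and the median summit over the 6 libraries was within 250 bp of it in 139 (73.5%) and within 100 bp in 73 (38.6%). Summits lay upstream of the start in 109 regions, with a median position of -31.0 bp. At Dancr, the summits in the 6 libraries were 47 to 101 bp upstream of the start, and at Gm33195 they were 70 to 80 bp downstream.

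**Figure D1:**
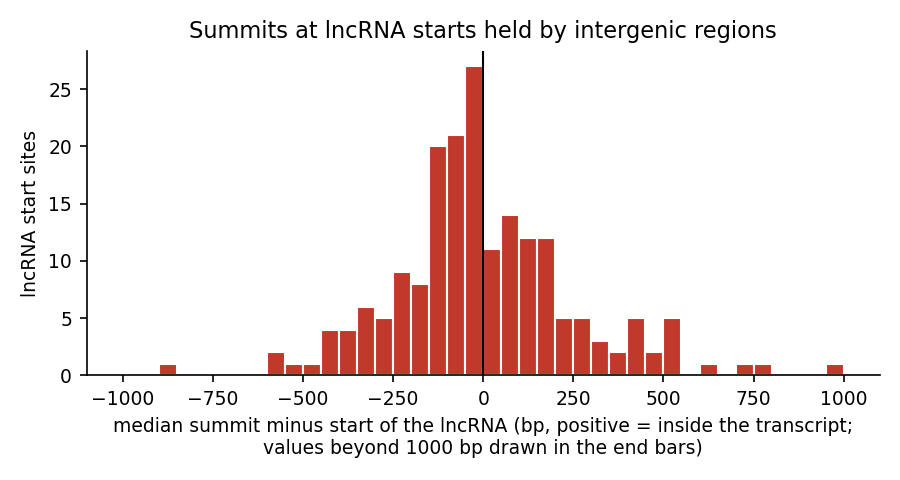
Median summit position over the 6 libraries relative to the annotated lncRNA start (bp, x axis), with the number of lncRNA start sites in bins along the y axis, 1 start for each of the 189 regions. Most starts lie within 250 bp of the summit (139 of 189), with the tallest bar just upstream of the start.

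Regions at lncRNA starts ranked higher than regions outside these kinds of non-coding gene. Rank is given as the percentile of a peak's fold enrichment (the peak caller's ratio of signal to local background, as the authors deposited it) within the library's own list, with 100 at the top. Their median percentile was 82.4, 71.8 and 63.98 in DMSO libraries 1 to 3 and 77.1, 81.2 and 76.2 in Tunicamycin libraries 1 to 3. The 1957 regions that touched no promoter window of an lncRNA and no body of an lncRNA, pseudogene or tRNA gene had 79.3, 65.9 and 52.7, and then 71.4, 77.4 and 72.3, so they were lower in each of the 6 libraries. Regions at lncRNA starts were also wider, with a median union width of 802 bp against 649 bp. Neither difference was tested, and a wider region overlaps a promoter window more readily, so the width difference is in part set by the choice.

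Among named lncRNAs, Dancr, a snoRNA host gene, had percentiles of 99.9, 98.4 and 99.7 in the DMSO libraries and 99.9, 99.9 and 99.5 in the Tunicamycin libraries. Chaserr, whose transcript is known to restrain its neighbour Chd2, had 89.9, 96.7 and 97.7, and then 94.7, 94.2 and 89.8. Jpx, an RNA of the X-inactivation centre that acts on Xist, had 64.5, 53.9 and 80.04, and then 81.4, 71.4 and 66.7. The order of these 3 held in every library, with Dancr at the top and Jpx lowest. Snhg5, a snoRNA host, ranged from 79.7 to 89.6, and Snhg17, another, from 75.4 to 87.0.

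Beyond lncRNA starts, 569 regions (20.5%) overlapped an lncRNA body and touched no pseudogene or tRNA gene. Another 46 (1.65%) overlapped a pseudogene but no tRNA gene, and 20 overlapped a tRNA gene. Regions of these last 2 kinds could also overlap an lncRNA body. Counting every overlap, 25 touched a tRNA gene. In all, 843 (30.3%) overlapped some gene that does not code for protein. These 25 held up to 4 tRNA genes each, and those named here were chosen after their values were seen. The highest was at n-TNgtt14, a tRNA-Asn gene 13.4 kb from Uspl1, with percentiles of 89.6 to 96.9. The region near Trim55 (chr3:19627865-19629420) held n-TAagc14, n-TRacg3, n-TYgta1 and n-TYgta2 and ranked at 71.4 to 86.9, and the region near Osbp with n-TKctt29 had the lowest median over the libraries (12.8), at 4.28 to 18.3. The 20 regions that touched a tRNA gene but no lncRNA promoter window had a median union width of 865 bp, against 670 bp over all 2781. A wider region overlaps a gene more readily, so this width is in part set by the choice. Mature tRNA genes are near-identical copies, so reads within them may be shared between loci.

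In fold enrichment, the 2781 regions had medians of 9.03, 6.54 and 5.36 in DMSO libraries 1 to 3 and 7.17, 7.95 and 7.43 in Tunicamycin libraries 1 to 3. Their median percentiles were 79.3, 66.4 and 53.6 in the DMSO libraries and 71.7, 77.5 and 72.7 in the Tunicamycin libraries. The lists were 62478, 38217 and 28501 peaks long in the DMSO libraries and 44952, 56865 and 47789 in the Tunicamycin libraries, and the order of the median percentiles was the order of the list lengths. DMSO library 3, with the shortest list, stood lowest in each measure. The depth in reads is not known, since the lists hold no read counts.

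The regions spanned a wide range of strength. In DMSO library 1, 691 (24.8%) were among the top 10% of peaks, and in DMSO library 3 only 153 (5.50%) were. The number below the median of the list was 348 (12.5%) in DMSO library 1 and 1241 (44.6%) in DMSO library 3. Above the 90th percentile in all 6 libraries stood 85 regions, and below the 50th in all 6 stood 91. Most were single peaks: 2494 (89.7%) held 1 peak in each library. The union width had a median of 670 bp, from 278 to 2237 bp. Summits of the 6 libraries lay within 100 bp of each other in 1808 (65.0%) and over 300 bp apart in 249, with a median spread of 76 bp.

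The 10 regions with the highest percentile in their lowest library stood at 99.4 or above in every library. Region chr9:35305142-35305674 overlapped an lncRNA and lay 29.2 kb downstream of Rpusd4 (a mitochondrial pseudouridine synthase). It had fold enrichments of 25.5, 26.3 and 24.4 in the DMSO libraries and 26.6, 25.6 and 25.2 in the Tunicamycin libraries. Region chr1:195241460-195241984, 64.6 kb upstream of the complement receptor gene Cr2, had 22.2, 21.9 and 20.7, and then 20.3, 23.5 and 21.5. Region chrX:143482912-143483204 near Pak3, a p21-activated kinase gene, was 293 bp wide and had 23.2, 22.3 and 17.0, and then 21.3, 20.9 and 19.7. The other 7 were near Tcp10c, Axin2, Vmn2r129, Gm15319, Kcnh5, Gtpbp4 and Cd83, the last at the Gm33195 start. The width their peaks covered was steady in some and not in others. The Rpusd4 region covered 516 to 531 bp over the 6 libraries and the Pak3 region 290 to 293 bp, while the Cd83 region covered 399 to 611 bp, the Gtpbp4 region 337 to 648 bp and the Gm15319 region 586 to 1059 bp. No list of artefact-prone stretches was applied here, and whether the authors applied one is not given in the sources used here.

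To place these values, the regions were set beside the other regions called in all 6 libraries, by position. That rule kept unequal shares of the union regions. It kept 16.9% at this distance, 56.2% at gene ends, 16.7% deep inside genes and 10.9% over 100 kb from any gene. Differences in rank and width between the classes may thus be in part set by the choice. Their median percentile was below that of the 9078 regions within 1 kb of a gene end in 6 of 6 libraries, with an average difference of -11.8 (-22.3 to -5.43). It was above that of the 3896 regions inside a gene and 10 kb or more from its ends in 6 of 6 libraries, by 1.70 (0.954 to 2.21), and below that of the 622 regions over 100 kb from any gene in 6 of 6, with a difference of -3.09 (-3.94 to -2.08). In covered width the regions were narrower than gene-end regions in 6 of 6 libraries, with a difference of -243 bp (-258 to -197 bp). They covered 5.67 bp more than regions deep inside genes and 6.0 bp more than those over 100 kb away, each in 5 of 6 libraries with no difference in the sixth.

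None of these 6 differences passed 0.05 after adjustment, which was possible only if all 6 had the smallest p the test allows. Missing that threshold is thus no evidence that the classes are alike. The 6 libraries also read the same regions, so the test is about the libraries and not about other regions. The exact two-sided sign-flip test over 6 libraries gave p = 0.03125 for the 3 percentile differences and for the width against gene ends, the smallest value 6 libraries allow, with adjusted p = 0.0625 (Benjamini-Hochberg over 8 tests). For the width against regions deep inside genes and over 100 kb away it gave p = 0.0625 and adjusted p = 0.0833 (exact). The median difference from gene-end regions was much larger than the other two in both measures.

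**Figure D2:**
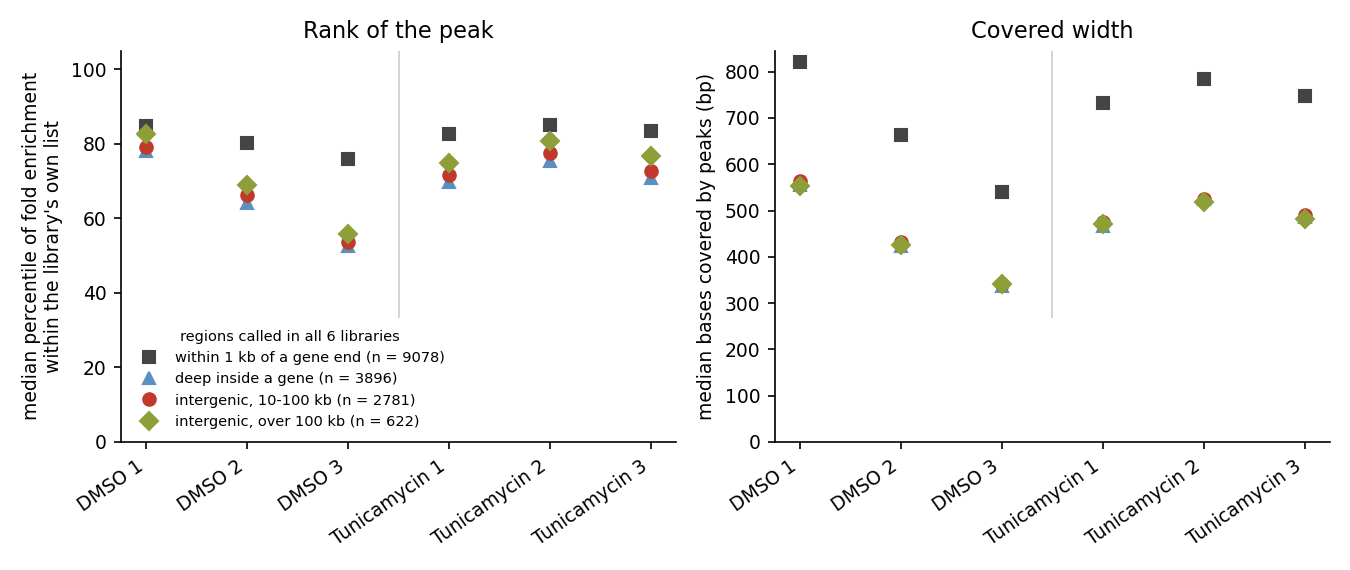
Median percentile of fold enrichment within each library's own list (left, 0 to 100) and median bases covered by peaks (right, bp) in the 6 libraries, for regions called in all 6 libraries at 4 positions. Intergenic regions at 10 to 100 kb (red circles, n = 2781) sit below gene-end regions (squares) in all 6 libraries and close to the other 2 classes, and all classes are lowest in DMSO library 3.

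Regions at this distance were less often shared by all libraries than those at gene ends. Of the 16502 union regions that were intergenic and 10 to 100 kb from a gene, 16.9% were called in all 6 libraries and 36.5% in 1. The share called in all 6 was 56.2% of 16142 at gene ends, 16.7% of 23279 deep inside genes and 10.9% of 5725 over 100 kb from any gene. When only peaks with a q-value of 1e-05 or less counted, 2235 (80.4%) of the 2781 were still called in all 6 libraries, against 92.4% of gene-end regions. With every list limited to its best 28501 peaks, 2086 (75.01%) were, against 91.4%.

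Density fell with distance from the nearest gene. The regions numbered 6.69 per Mb of sequence at 10 to 20 kb, 5.03 at 20 to 30 kb, 3.58 at 50 to 60 kb and 2.38 at 90 to 100 kb, and each 10-kb step was lower than the one before. Over the whole range the density was 4.50 per Mb, against 0.792 over 100 kb from genes and 14.8 inside protein-coding genes. The last value counts all 15293 regions that overlap a gene span, those at gene ends among them, so it is not a density of regions deep inside genes. The median distance was 27.0 kb, and 990 regions (35.6%) lay at 10 to 20 kb. Strength did not follow this slope: the median percentile was 71.5 at 10 to 20 kb, 73.0 at 70 to 80 kb and 70.3 at 90 to 100 kb.

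**Figure D3:**
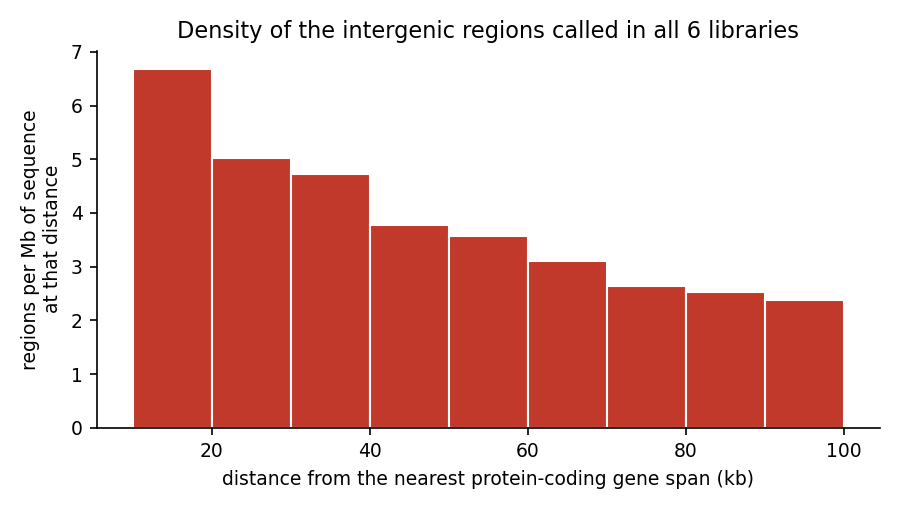
Number of the 2781 intergenic regions per Mb of sequence at each distance (bars, y axis from 0), in 10-kb steps of distance from the nearest protein-coding gene span (x axis). The bars fall at every step, from 6.69 per Mb at 10 to 20 kb to 2.38 per Mb at 90 to 100 kb.

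At the edges of the range, the region at 10.009 kb from Atp6v1g3 was the nearest one kept, with percentiles of 61.4, 76.4 and 61.6 in the DMSO libraries and 77.7, 76.0 and 74.6 in the Tunicamycin libraries. The region at 9.999 kb from Otulin was just left out, with 69.9, 78.6 and 39.6, and then 68.1, 84.1 and 79.7. At the far edge, the region 99.843 kb from Etv1 was kept (95.4, 76.8 and 39.6, then 68.1, 92.8 and 62.6), and the one 100.068 kb from Smim20 was not (86.3, 63.4 and 46.4, then 48.1, 90.6 and 92.5).

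For the 2151 regions whose nearest gene had a known strand, 1233 (57.3%) lay upstream of the gene and 918 downstream. Per Mb of flanking sequence nearest to such genes, the density was 4.75 upstream and 4.12 downstream. Regions also stood in groups. With neighbours linked up to 12.5 kb apart, 1869 regions stood alone, 327 pairs formed, and 75 groups held 3 or more. The largest group held 8 regions in 41.4 kb between Lrrc74a and Irf2bpl, and the next held 6 in 40.8 kb near Jade2 and Cdkn2aipnl.

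The 2781 regions were nearest to 1890 protein-coding genes, 8.64% of the 21887 in the table and 14.6% of the 12898 that have such flanking sequence. A single region was nearest to 1355 of them, 535 had 2 or more, and 90 had 4 or more. Genes with a region more often had an end that was open in all 6 libraries. The share with a constitutive region within 1 kb of a gene end was 34.5% of flanked genes with none of the regions, 58.2% of those with 1, 65.4% with 2, 59.5% with 3 and 68.9% with 4 or more. This was not tested, and genes with more regions also had more flanking sequence, a median of 22.4 kb with none and 90 kb with 4 or more.

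The genes with most regions were Grm4, Ly86 and Zfp36l2 with 7 each, and Tnfaip3, Runx3, Rybp, Lrrc74a and S1pr1 with 6 each. Chd2 and Wnt7b followed with 5, as did 29 other genes, from which these 2 were taken by their strongest region. Grm4 encodes a glutamate receptor, and its flank on one side ran over 99.1 kb with 6 regions. Ly86 encodes the partner of the B-cell receptor CD180, and Zfp36l2 an RNA-binding protein that speeds decay of AU-rich mRNAs. Grm4, Ly86, Lrrc74a and Wnt7b had no region called in all libraries at an end of the gene, while the other 6 had one.

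The flanks differed in strength. Tnfaip3, which encodes A20, an inhibitor of NF-kB signalling, had median percentiles of 76.8 to 95.04 over its 6 regions. Its strongest region, 78.8 kb upstream (chr10:19094169-19094882), had 98.1, 82.9 and 82.2 in the DMSO libraries and 94.5, 99.7 and 95.6 in the Tunicamycin libraries. Chd2, a chromatin remodeller gene, had medians of 78.8 to 96.6, and the region at the Chaserr start was 1 of its 5. By contrast, 6 of the 7 regions of Zfp36l2 had medians below 60, and only the nearest, 21.9 kb away, was strong, at 75.8 to 89.5 over the 6 libraries.

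Runx3, a Runt-family transcription factor gene, had 5 regions upstream from 21.7 to 65.7 kb and 1 region 14.7 kb downstream. The downstream region (chr4:135192689-135193495) was the strongest, with 93.5, 91.6 and 81.4, and then 95.9, 94.2 and 95.1. S1pr1, the receptor for the egress signal sphingosine 1-phosphate, had 6 regions whose medians ran from 28.9 to 75.3. Rybp, a subunit of variant Polycomb complexes, had medians of 30.8 to 89.5. At Wnt7b, a Wnt ligand gene, the region at the D130051D11Rik start ranked at 92.1, 97.6 and 99.0, and then 97.4, 98.3 and 97.6.

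**Figure D4:**
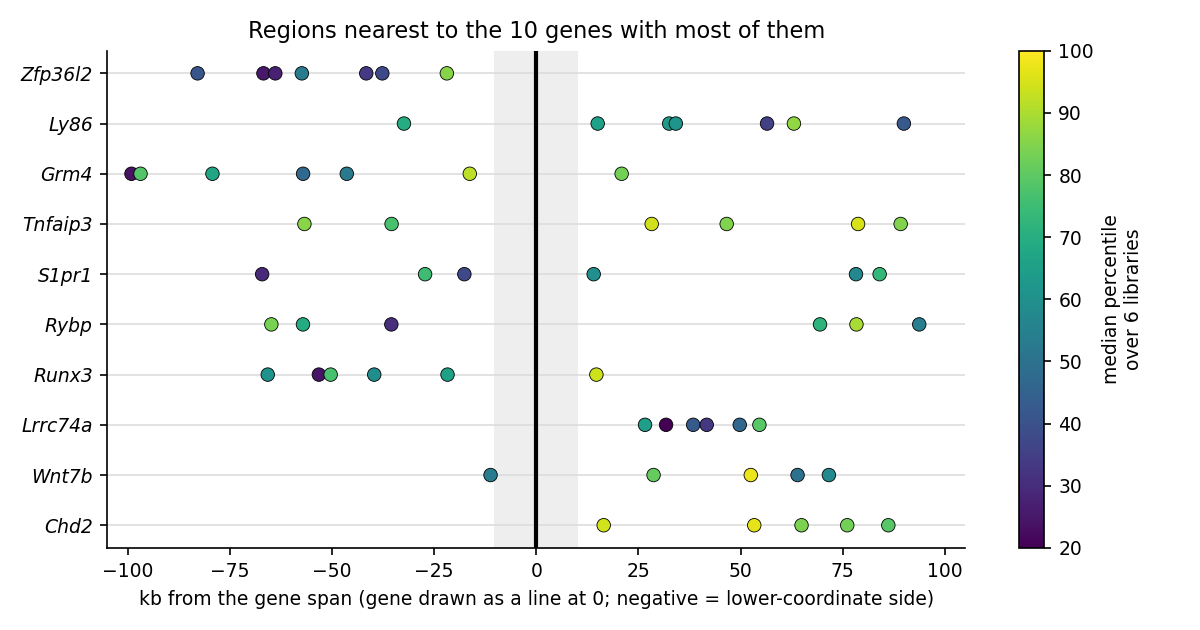
Position of each region (points) in kb from the span of its nearest gene (x axis, the gene drawn as a line at 0, the grey band the 10 kb on either side that the rule leaves out), for the 10 genes with most regions; colour gives the median percentile over the 6 libraries. Tnfaip3 and Chd2 carry strong regions throughout, while most Zfp36l2 and Lrrc74a regions are weak.

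Genes of stem cell regulators were compared as lists, with the density over all genes (4.50 regions per Mb of flank), the share of all genes with a region (8.64%) and the median percentile of all 2781 (71.7) beside them. These lists were not tested. All 17 lists had a share above 8.64%, from 10.0% (erythroid) to 41.7% (AP-1 and immediate early). The stromal and endothelial list had 31.6%, so a higher share was not particular to stem cell genes. Over the genes that have such flanking sequence, the share was 14.6%. Of 35 HSC transcription factor genes, 13 had a region (37.1%), with 27 regions in all, 11.8 per Mb of flank and a median percentile of 63.4. The 13 were Zfp36l2, Foxo1, Lmo2, Nkx2-3, Ikzf2, Runx1, Erg, Fli1, Cebpa, Hlf, Gfi1, Mllt3 and Foxo3. Of these, Zfp36l2 encodes an RNA-binding protein and not a transcription factor. It gave 7 of the 27 regions, 6 of them with medians below 60, and so weighs on the density and median of the list. At gene ends, 23 of the 35 genes of the factor list (65.7%) and 13 of the 27 genes of stem cell surface molecules and niche receptors (48.1%) had a constitutive region. The count was 8 of 24 myeloid, 8 of 20 erythroid, 9 of 19 megakaryocyte, 12 of 30 lymphoid, and 5 of 19 stromal and endothelial genes, and the share was 45.5% over all genes. The surface and receptor list was thus near all genes and the megakaryocyte list (47.4%).

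Cebpa, the myeloid and stem cell factor gene, had 1 region 20.0 kb upstream (chr7:35098562-35099323). Its percentiles were 84.8, 58.4 and 79.1 in the DMSO libraries and 82.0, 85.7 and 77.7 in the Tunicamycin libraries, and the groups overlapped. Hlf, a marker of the most primitive stem cells, had 1 region 26.9 kb upstream with 89.4, 78.3 and 38.1, and then 83.7, 86.1 and 76.8. Runx1, which is needed for blood stem cells to form, had regions 41.1 and 57.6 kb upstream. The farther one (chr16:92883724-92884401) was the stronger in all 6 libraries, with 90.2, 82.2 and 57.0, and then 81.0, 86.6 and 91.2, against 56.9, 52.6 and 13.6, and then 31.6, 66.2 and 69.7. In each of these genes the lowest value was in DMSO library 2 or 3.

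Erg had a region 17.3 kb downstream that varied widely, with 83.4, 23.6 and 82.8, and then 32.6, 83.1 and 63.3. Lmo2, a bridging factor in the SCL complex, had 3 regions, of which those at 12.6 and 11.7 kb are neighbours. The region 12.6 kb away had 57.5, 75.5 and 34.0, and then 38.0, 48.2 and 35.3, and the groups overlapped on this scale. The region 11.7 kb away had 57.6, 22.2 and 13.3, and then 69.2, 61.5 and 62.2, with all 3 Tunicamycin values higher. Foxo1 had 3 regions, of which the one 93.8 kb downstream was the strongest, at 71.4 to 96.0. Nkx2-3 and Ikzf2 had 2 each, and Fli1 1 at 12.6 kb, with 66.5 to 86.9. Gfi1 had 1 at 17.2 kb with 33.8 to 65.1.

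Of 27 genes for stem cell surface molecules and niche receptors, 9 had a region, with 16 regions and a median percentile of 76.6. Kit, the stem cell factor receptor used in the sort, had regions 38.4 and 73.8 kb downstream. The farther (chr5:75730569-75731565) had 92.2, 89.96 and 84.1, and then 89.0, 81.7 and 90.7. The nearer had 78.2, 71.2 and 62.5 in the DMSO libraries and 42.6, 40.4 and 61.4 in the Tunicamycin libraries, and the groups did not overlap in percentile. Cd34 had 3 regions at 14.8 to 58.7 kb, all at 68.0 or above in each library. Il6st, the shared receptor chain of the interleukin 6 family, had 3 upstream regions at 39.1 to 80.6, and Cd44 had 2.

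Lineage genes also had such regions in these stem cells. Among myeloid genes 6 of 24 had one (11 regions, median 78.1), and Csf2ra, the GM-CSF receptor gene, had 4. Its downstream region at chr19:61199352-61200113 ranked at 98.3 to 99.9 in all 6 libraries, and its upstream regions at 31.8 to 92.8. Irf8, a monocyte factor gene, had regions 20.7 kb upstream and 20.2 kb downstream. Among lymphoid genes 7 of 30 had one (16 regions, median 63.5), with Tcf7 and Id2 at 4 each, Lef1 at 3 and Ikzf1 at 2. The Lef1 region 52.6 kb upstream ranked at 80.8 to 98.8, the one 90.2 kb upstream at 71.6 to 93.1 and the one 95.5 kb upstream at 11.9 to 74.2. Erythroid genes had fewer, 2 of 20, among them Bcl11a with 4 regions, and megakaryocyte genes 2 of 19 (Cd9 and Fli1). Stromal and endothelial genes numbered 6 of 19 with 1 region each, among them Kdr and Emcn.

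The share of genes with a region was highest in 2 signalling lists of the 17. Of 31 interferon and NF-kB genes, 12 (38.7%) had a region (24 regions, 25.1 per Mb of flank), with Tnfaip3 at 6 and Socs3 and Ifngr1 at 3 each. The density was not particular to this list, since the myeloid list had 29.0 per Mb and the housekeeping controls 26.9, and of the 17 lists only the stromal and endothelial one (4.08) was below the 4.50 of all genes. Of 24 AP-1 and immediate early genes, 10 (41.7%) had one (15 regions, median percentile 61.03). Fos had a region 18.0 kb upstream with 80.8, 88.4 and 94.96, and then 86.9, 93.8 and 89.8. Jun had 1 region 53.7 kb upstream with 85.4 to 95.6. Others in this list were weaker. A further Fos region, 26.3 kb upstream, ran from 37.4 to 79.8. Both Dusp1 regions lay at 2.91 to 39.0, and the 4 Ier3 regions ran from 7.59 to 90.4. In the TGF-beta list 6 of 22 genes had one, among them Skil and Smad6. In the cell cycle list 7 of 29 had one, led by Ccnd2, and in the apoptosis and p53 list 6 of 24, including Mcl1 with 64.6 to 89.8. Of 31 chromatin regulator genes, 5 had one, with Chd7 at 5 regions. Housekeeping controls had 2 of 18, Actb with 2 regions and Ywhaz with 5. Emp1 alone of the 4 genes of the EMP and PMP22 family had a region, 67.3 kb downstream, with 98.0, 88.0 and 31.8, and then 76.0, 91.1 and 75.6.

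In the stress pathways that Tunicamycin acts on, most genes had an open end and fewer had one of the intergenic regions. Of 38 ER stress genes, 35 (92.1%) had a constitutive region at a gene end and 7 (18.4%) had one of the intergenic regions, 9 in all. Of 30 genes of the integrated stress response, 24 had the first and 5 (16.7%) the second, with 11 regions. Open ends were also the more frequent over all genes (45.5% against 8.64%) and in the housekeeping controls (88.9% against 11.1%). That order was thus not particular to the stress lists. The share with an intergenic region was above the 8.64% of all genes in both stress lists and in the housekeeping controls, and was not tested. Xbp1, the transcription factor gene of the IRE1 branch, had 1 region 34.4 kb upstream at the start of the lncRNA Gm11963. Its percentiles were 75.4, 81.4 and 77.8 in the DMSO libraries and 87.9, 87.9 and 82.2 in the Tunicamycin libraries. The Tunicamycin values were all higher on this scale, but in the common ranking described next they overlapped. Creb3l2, Pdia4 and Os9 had 1, 1 and 3 regions, and Cebpb and Atf3 had 5 and 3.

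The comparison of Tunicamycin with DMSO asked whether these regions ranked differently after the treatment. Since the lists differ in length, each region was ranked among the 20810 regions called in all 6 libraries, which makes a common ranking of equal length. The median of the 2781 in that ranking was 48.1, 43.6 and 39.6 in DMSO libraries 1 to 3 and 44.4, 46.5 and 44.2 in Tunicamycin libraries 1 to 3. The groups overlapped, since the 2 extremes were both DMSO libraries. The difference was 1.26 percentile points (45.0 ± 1.25 against 43.8 ± 4.22, SD, n = 3 each; exact two-sided permutation p = 0.70, adjusted p = 0.70). With a library left out, the regions and the common ranking were chosen anew. Without DMSO library 3 the difference was -0.38, over the 4217 regions that then met the rule. Without DMSO library 1 it was 3.76, over 2798 regions (exact two-sided permutation p = 0.10, adjusted p = 0.125).

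The covered width showed the same picture. Medians were 564, 431 and 342 bp in the DMSO libraries and 475, 526 and 491 bp in the Tunicamycin libraries, again with both extremes in DMSO. The difference was 51.7 bp (497 ± 26.1 against 446 ± 112 bp, SD, n = 3 each; exact two-sided permutation p = 0.50, adjusted p = 0.571). Over the regions chosen anew it was -1.50 bp without DMSO library 3. Without DMSO library 1 it was 110 bp (exact two-sided permutation p = 0.10, adjusted p = 0.125). With 3 libraries against 3 the smallest p this test can give is 0.10. Fewer cells with a region open and less opening in each cell cannot be told apart in such bulk libraries.

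Single regions were called by separation of the groups. All 3 Tunicamycin libraries ranked above all 3 DMSO libraries in 158 of the 2781 regions (5.68%), against 4.66% of all 20810 regions. They ranked below in 130 (4.67%), against 4.55%. Both shares were near the background, so the counts are not a result about these regions. With any 1 library left out, both the regions counted and the libraries that had to separate changed, and the counts were 260 to 438 above and 218 to 484 below. The widest gaps from all regions were without DMSO library 1, with 15.7% above against 12.4% of all regions and 11.3% below against 16.3%. Without DMSO library 3, 4217 regions met the rule, with 9.89% above against 10.3% and 11.5% below against 9.46%. The differences of group medians had quartiles of -7.13 and 9.36 percentile points and a median of 0.76.

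**Figure D5:**
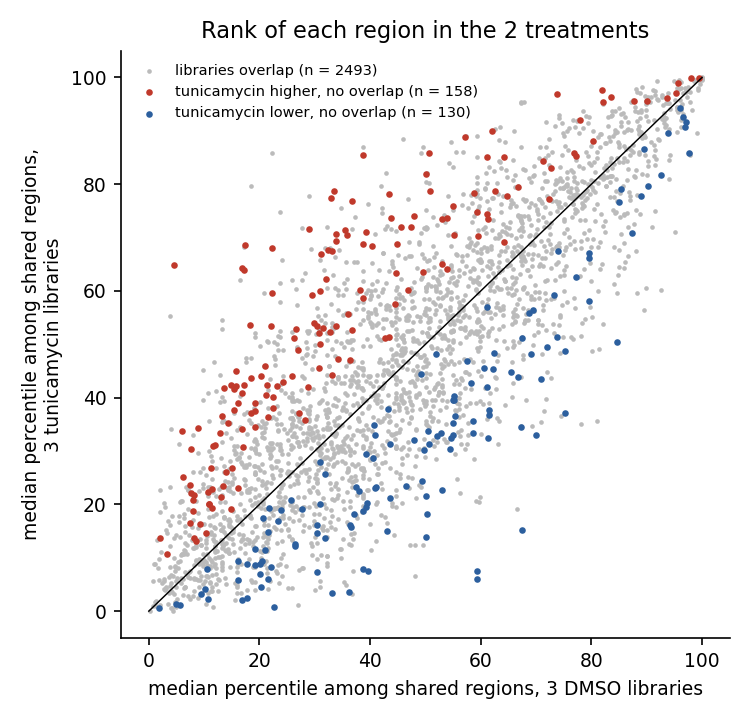
Median percentile in the common ranking of the 20810 shared regions, for each of the 2781 intergenic regions, in the 3 DMSO libraries (x axis) and the 3 Tunicamycin libraries (y axis), with the line of equality. Points lie on both sides of the line, 158 with all Tunicamycin libraries higher (red) and 130 with all lower (blue), shares near those of all regions.

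The 5 regions with the largest separated differences upward were near Gvin1, Atl2, Lpin2, Slc35d3 and Mllt3. They are described because of that size and carry no test. Near Gvin1, a gene of the interferon-inducible GTPase family, the common ranking was 1.8, 4.5 and 31.03 in DMSO libraries 1 to 3 and 65.6, 64.9 and 35.0 in Tunicamycin libraries 1 to 3. Near Mllt3, which encodes AF9, a factor tied to stem cell self-renewal, the region 86.6 kb downstream (chr4:87682742-87683305) had 16.9, 13.6 and 25.9, and then 44.6, 64.2 and 71.8. Near Atl2, a GTPase gene that shapes the ER, it was 56.2, 17.2 and 7.3, and then 63.99, 67.1 and 57.3. The groups were barely apart at Atl2, through DMSO library 1, and well apart at Mllt3.

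The 5 largest downward were near Sspn, Slc1a4, Slc22a3, Zfp970 and Myoc. Near Slc1a4, a transporter gene for small neutral amino acids, the ranking was 39.9, 67.4 and 85.6 in the DMSO libraries and 38.4, 15.2 and 7.3 in the Tunicamycin libraries. Near Myoc it was 69.98, 71.3 and 50.1, and then 30.2, 33.0 and 35.8. Near Sspn it was 20.2, 63.5 and 59.4, and then 2.7, 6.0 and 13.8. The Zfp970 region was at the start of the lncRNA Gm14403, where the ranking went from 82.9, 63.8 and 75.2 to 37.0, 13.7 and 40.6. In these regions the groups were apart, by little in Slc1a4 and by more in Myoc and Zfp970.

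Among the listed genes, the separated regions fell in both directions. The counts below stand beside 4.66% higher and 4.55% lower over all 20810 regions. Among stress genes, the Ddit4 region 16.6 kb downstream of this stress-induced inhibitor of mTORC1 had 78.0, 85.4 and 52.1 in the DMSO libraries and 92.8, 89.1 and 92.0 in the Tunicamycin libraries. An Atf3 region 17.8 kb upstream was higher (38.5, 6.0 and 36.1, then 66.1, 54.6 and 55.7), while another 40.7 kb upstream was lower by a small amount (52.0, 49.4 and 52.5, then 48.2, 49.1 and 46.1). Atf3 thus had 1 region called in each direction. For Os9, an ER lectin gene of the degradation pathway, 1 of 3 regions was lower. The ER stress list as a whole had 0 regions higher and 1 lower of 9, and the integrated stress list 2 higher and 1 lower of 11.

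The list of HSC transcription factors, which includes Zfp36l2, had 3 regions higher (Mllt3, Foxo1 and Lmo2) and 3 lower (Foxo3, Lmo2 and Zfp36l2) of 27. The shares over all regions were 4.66% higher and 4.55% lower. The lower Lmo2 region, 12.6 kb away, had 18.7, 57.0 and 20.96 in the DMSO libraries and 11.4, 12.0 and 9.87 in the Tunicamycin libraries in the common ranking, in which the groups did not overlap as they did in the libraries' own lists. Surface molecule genes had 2 higher and 1 lower of 16. The lower one was the nearer Kit region, with 45.8, 50.3 and 50.1 in the DMSO libraries and 14.0, 8.5 and 29.3 in the Tunicamycin libraries in the common ranking. The higher ones were a Cd34 region 33.8 kb downstream (60.5, 65.0 and 61.1, then 66.5, 74.5 and 74.9) and a region 14.5 kb from Slamf1, which encodes the CD150 of the sort, with group medians of 44.7 in DMSO and 63.4 in Tunicamycin. Of the lineage genes, Irf8 had 1 region lower, and Bcl11a and Gata3 had 1 region higher each.

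Chromatin regulator genes had 4 regions higher and 0 lower of 10, beside 4.66% higher and 4.55% lower over all regions. They were near Chd7, a remodeller gene (58.1 kb away), Eed, a Polycomb subunit gene (38.6 kb), Tet2, a DNA demethylase gene (37.6 kb), and Arid1b, a BAF subunit gene, at the start of the lncRNA Gm34507. The group medians were 22.5 and 38.1 for Chd7, 35.4 and 71.4 for Eed, 21.4 and 42.3 for Tet2, and 49.5 and 63.6 for Arid1b, DMSO first. Interferon and NF-kB genes had 0 higher and 2 lower of 24, near Socs3 and Gbp6, and the TGF-beta list 1 higher of 7, near Smad4. Housekeeping controls had 0 higher and 2 lower of 7, near Actb and Ywhaz. In the AP-1, cell cycle and apoptosis lists no region separated in either direction. Slamf1, Gata3, Tet2, Gbp6 and Smad4 were named after their values were seen. These counts are small, none of them was tested, and they are not a result about any of the lists.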

How the data were processed

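ATAC-seq was done on sorted bone marrow stem cells in 6 libraries, 3 from DMSO and 3 from Tunicamycin injected mice. Reads were trimmed with Trim Galore 0.4.4 and aligned with Bowtie2 2.2.9 to mm10, Picard and featureCounts were used, and peaks were called with MACS2, per the submitters' processing notes; whether peaks were called with a control and how duplicates were treated is not given in the sources used here. One deposited peak list per library gives a fold ratio over background, −log10 of the p- and q-values, a display score and the summit offset, which the authors' peak caller wrote; the lists were called separately. All 6 lists reached a largest q-value near 0.05. The lists hold no read counts, so depth per library is unknown and the number of libraries limits the precision.

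Peaks on other sequences (109 to 138 per list) were left out. Peaks sharing 1 bp were merged with a script checked against bedtools 2.31.1, which gave the same 82993 regions, and tested on simulated data. A region's fold in a library was its highest peak; its width was the bases its peaks cover. Percentiles used pandas 2.3.3, and the exact permutation and sign-flip tests enumerated every arrangement (Python 3.11.15, NumPy 2.4.6, SciPy 1.17.1); 8 tests were adjusted by Benjamini-Hochberg. No correction for width or base content was made.

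The members and the 17 gene lists (427 entries, 415 genes; 2 not matched) were chosen with earlier results of these data known. Genes named were the 10 with most regions, the 10 highest regions, every HSC transcription factor and up to 4 genes of each other list with a region, the 5 regions with the largest separated difference in each direction, and the regions at the distance limits; others were chosen after their values were seen. lncRNAs were named from the promoter windows of the RefSeq table. Alternatives tried were stricter q-values, lists of equal length, autosomes only, 50% cover of a region, windows of 250 bp around summits, spans of all genes, a 20 kb limit, ranking by −log10 q, mean over peaks, leaving out each library and pairing by number. The same-numbered libraries did not deviate together (correlations of -0.08, -0.04 and 0.00), so the fits without pairing are the main ones.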

Additional observations from a re-analysis of the deposited data

How the results depend on the processing

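The number of regions was 1477 when peaks had to cover 50% of a region, 1470 when all gene spans of the table were left out, 1791 at 20 to 100 kb, and 2798 to 4217 with 1 library left out, the highest without DMSO library 3. The rank difference between Tunicamycin and DMSO was -0.38 to 3.76 and the width difference -1.50 to 110 bp with 1 library left out, both reversed only without DMSO library 3. Against all gene spans, the width difference was -7.42 bp from regions deep inside genes and -23.3 bp from regions over 100 kb away, where the main values were positive. Regions ranked higher after Tunicamycin numbered 88 with 50% cover, 96 with all gene spans and 104 at 20 to 100 kb, and regions ranked lower 74, 64 and 78, in each case with fewer regions counted. With 1 library left out they were 260 to 438 and 218 to 484 (over all regions 8.50% to 12.4% and 7.97% to 16.3%), with fewer libraries to separate and another set of regions. Covering windows of fixed size around summits set the width, so the width results were not run there. The other settings kept the direction. The smallest adjusted p in any setting was 0.05, at the threshold and not under it, for the 3 percentile differences and the width difference from gene ends with 50% cover and with all gene spans, and for the width difference from regions deep inside genes with the first and from regions over 100 kb away with the second. Designs with 5 libraries cannot reach it. With same-numbered libraries as pairs (replicate block), the differences were 1.26 points (exact p = 0.75) and 51.7 bp (exact p = 0.50), with 0.25 the smallest p that 3 pairs allow. Ranks depend on the length of each list, which was shortest in DMSO library 3, and read depth is unknown.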
